A study of Mus musculus with 16 samples.

Results

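The genes examined here encode the proteins of the cytosolic ribosome. They were taken by name: every gene in the deposited count tables whose symbol is Rpl or Rps, with or without p, followed by digits and at most 1 letter, and also Rpsa. This rule found 81 of 46878 genes, 49 named for the large subunit (3 of them the stalk proteins Rplp0, Rplp1 and Rplp2) and 32 for the small subunit; pseudogenes with -ps in the symbol do not match. No measured value entered the choice. GENCODE M21 annotates 80 of the 81 as protein coding and the other one, Rps4l, as a transcribed processed pseudogene. Ribosomal proteins with other symbols, among them Fau, Rps3a1 and Gnb2l1 (the receptor for activated C kinase), fall outside the rule and are given separately.

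The libraries come from RedMUC298trTg mice, a strain with an mCherry-tagged reporter of MUC2, the mucin that goblet cells make. All groups carried the transgene and were 6 to 8 weeks old. Live epithelial cells were sorted by mCherry from the distal colon (DC) and from section 8 of the small intestine (Si8). This gave 4 groups of 4 bulk RNA libraries: DC goblet and Si8 goblet cells (mCherry present) and DC other and Si8 other cells (mCherry absent, called colonocytes or enterocytes in the labels but holding every epithelial cell without the reporter). The 2 sorts went through different RNA purification columns, and an effect of the column cannot be told apart from one of the sort. The comparisons ask how goblet cells differ from the epithelium around them in each region, and how each sort differs between the regions.

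Each ribosome carries about the same set of proteins, a single copy of most of them, and the cell must make them in matching amounts. In mammals most of their mRNAs begin with a run of pyrimidines, the 5′ terminal oligopyrimidine or TOP motif, through which mTORC1 and the La-related protein Larp1 control their translation together. Goblet cells make large amounts of secreted mucin, and crypt cells that divide must duplicate their ribosomes before each division, so both kinds of cell are known for a high demand for ribosomes. RNA levels, not translation, were measured here.

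RefSeq promoter windows (build GRCm38.p6, 250 bases before to 50 after each annotated start) were found for 60 of the 81 genes. The start of the mRNA is shown for members on which the results below turn and that have such a motif, as 30-base stretches of the sense strand with the unbroken run of C and T in capitals. Each was chosen as the CTTTC or CTCTT nearest the RefSeq start.
Rps6 (chr4:86857349-86857378, minus strand): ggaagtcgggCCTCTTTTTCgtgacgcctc
Rplp2 (chr7:141447636-141447665, plus strand): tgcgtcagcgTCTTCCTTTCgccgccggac
Rpl28 (chr7:4792952-4792981, plus strand): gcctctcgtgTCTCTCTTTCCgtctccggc
Rpl38 (chr11:114668568-114668597, plus strand): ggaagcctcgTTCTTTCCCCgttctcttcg
Rps27 (chr3:90213632-90213661, minus strand): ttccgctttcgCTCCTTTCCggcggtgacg
Rps21 (chr2:180257403-180257432, plus strand): gcacgagctaCTTCCTTTCTgcgctctcgc
Rpl9 (chr5:65391383-65391412, minus strand): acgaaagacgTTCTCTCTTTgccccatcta
Rpl39 (chrX:37085173-37085202, minus strand): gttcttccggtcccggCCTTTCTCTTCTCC
These runs are 9 to 14 bases long; that of Rpl39 reaches the end of its window. Not every member looks like this: the runs of Rpsa and Rpl12 found in the same way are 7 and 5 bases long, and Rplp0, Rps12, Rpl41 and Rps4x have a window in which neither motif was found near the start. In Rps6, Rplp2, Rpl28, Rpl38 and Rps27 the run spans the RefSeq start, while in Rpl9 and Rpl39 it begins 29 and 36 bases after it, and in Rps21 it lies before the start of 1 of 2 windows. On the sense strand within 50 bases of the start, 73.3% of the 60 members held CTTTC or CTCTT, against 25.98% of 27025 genes with a window. The motifs overlap: 53.3% of members held CTTTC (14.6% of all genes) and 30 of the 60 held CTCTT (15.6%).

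Longer stretches, from 100 bases before to 30 after the start, show the promoters of Rpl28 and Rps21, whose goblet effect differed between the regions, and of Rpl38, which rose most in DC goblet cells. Capitals mark CTTTC or CTCTT from 50 bases before the start onwards, and CCGGAAG or its complement, a core that ETS family factors bind.
Rpl28 (chr7:4792865-4792994, plus strand): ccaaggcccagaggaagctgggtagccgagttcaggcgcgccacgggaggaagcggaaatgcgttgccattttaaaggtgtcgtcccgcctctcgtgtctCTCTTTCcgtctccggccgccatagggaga
Rpl38 (chr11:114668480-114668609, plus strand): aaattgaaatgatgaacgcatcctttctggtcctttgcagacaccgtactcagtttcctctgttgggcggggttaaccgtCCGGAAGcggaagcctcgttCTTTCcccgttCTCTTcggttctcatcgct
Rps21 (chr2:180257279-180257408, plus strand): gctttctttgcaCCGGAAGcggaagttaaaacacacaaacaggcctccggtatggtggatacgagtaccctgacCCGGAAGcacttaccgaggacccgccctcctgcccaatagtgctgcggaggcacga
Counting both strands of the 300-base windows, 41.7% of the members held CCGGAAG against 9.93% of all genes with a window and 18.8% of those expressed here. GGGCGG, the core of a GC box, was found in 60.0% of members, 38.2% of all genes and 65.9% of expressed genes. TATAAA was found in 10.0% of members, 15.7% of all genes and 9.24% of expressed genes, and within 50 bases of the start on the sense strand in 6.67% of members and 2.73% of expressed genes. In all, 14 motifs were searched, and a match is only a match of letters. Members with CTTTC or CTCTT near the start (43 of those tested below) had a median goblet effect of 0.33 in DC and 0.50 in Si8 on the log2 scale, and the 14 with a window but neither motif had 0.36 and 0.51. The medians of DC minus Si8 were 0.33 in goblet and 0.54 in other cells with a motif and 0.25 and 0.37 without; this split was not tested.

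Total counts per library ran from 11.9 to 18.5 M in DC and from 30.8 to 41.1 M in Si8 (M, 1000000 counts), and the ribosomal protein genes received 406666 to 735963 counts per library in DC and 524542 to 1093069 in Si8. Muc2 stood at 9308 to 10716 CPM (counts per 1000000 of the TMM-adjusted library total) in DC goblet cells against 32.3 to 47.3 in DC other cells, and at 24139 to 62838 against 24.99 to 90.1 in Si8. Marker genes of other cells also differed between the sorts. The 6 Paneth cell markers found summed to 12400 to 32973 CPM in Si8 goblet cells, 673 to 1804 in Si8 other cells and at most 25.2 in any DC library, with Defa24 and Defa17 at 0.00 in DC. The 7 lymphocyte markers summed to 213 to 333 CPM in Si8 other cells and to at most 20.2 elsewhere. Absorptive markers were called lower in goblet cells for 8 of 10 genes in DC and 9 in Si8, enteroendocrine markers for 7 of 7 in both regions, and tuft cell markers for 1 of 4 in DC and 2 in Si8, none of these higher in goblet cells. Of the 2 B and plasma cell markers tested 1 was lower in goblet cells of each region, and of the 3 stromal and endothelial markers 3 were lower in DC and 2 in Si8. Of all genes tested, 27.9% were called lower in DC goblet cells and 31.8% in Si8 goblet cells. The tuft share in DC, 25%, is near that background, and lists of 2 to 4 genes are too short to read further. In every DC library the count of mitochondrially encoded genes was 0.

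Of the 81 genes, 78 passed the filter on low counts and were tested. Rpl10l and Rpl39l, copies of Rpl10 and Rpl39 best known from testis, had 0 counts in all 16 libraries. Rpl3l, the muscle form of Rpl3, had 0 to 4 counts per library. Rpl24 passed with only 7 to 53 counts per library, although its protein is a core part of the large subunit; 71.5% of its exon bases are shared on the same strand with Gm28037, which had 0 counts, and its values are not read further. Rpl13a, which shares 59.3% of its exon bases in the same way with other genes, had 389 to 499 CPM in DC other libraries. Rps10 shares more, 91.6%, with RPS10-NUDT3. How reads in such shared exons were counted is not known, so the counts of all 3 members carry this limit. The cause of the few counts of Rpl24 was not tested.

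Ribosomal protein mRNA formed a larger part of the RNA in goblet cells than in the other cells of the same region, and a larger part in the colon than in the small intestine. The summed level was 26284, 28485, 26372 and 24567 CPM in the DC other libraries and 32891, 33859, 31639 and 34066 CPM in the DC goblet libraries. It was 19173, 22940, 17345 and 16997 CPM in the Si8 other libraries and 28737, 27999, 24858 and 26303 CPM in the Si8 goblet libraries. The sorts did not overlap in either region, and the DC other and Si8 goblet libraries covered much the same range. The group means, 26427 ± 1604, 33114 ± 1108, 19114 ± 2724 and 26974 ± 1740 CPM (SD, n = 4 each), put goblet cells 1.25-fold above other cells in DC and 1.41-fold above them in Si8. In raw shares, without any scaling factor, the members took 2.65% to 3.15% of all counts in DC other, 3.62% to 3.97% in DC goblet, 1.42% to 2.22% in Si8 other and 1.97% to 2.87% in Si8 goblet cells. By raw share the Si8 sorts overlapped, through the Si8 other library of replicate 2. In bulk RNA a larger part of ribosomal protein mRNA and a smaller part of other mRNA cannot be told apart, nor can more cells that express a gene and more RNA per cell.

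**Figure D1:**
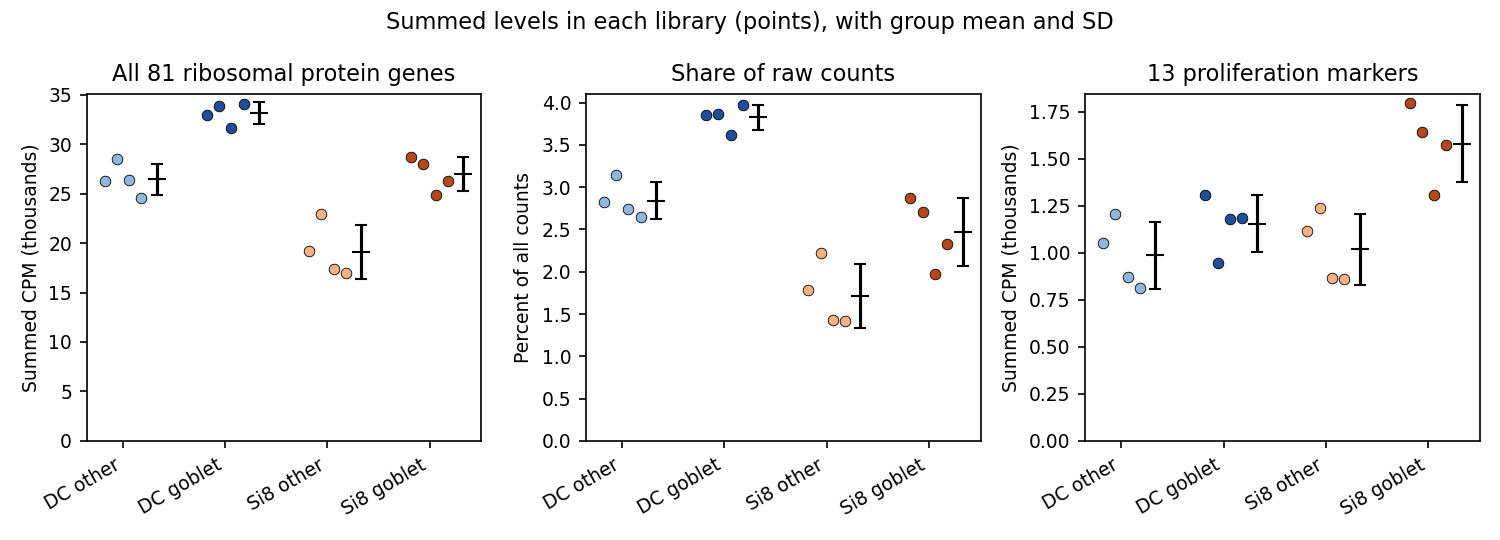
Summed CPM of the 81 ribosomal protein genes, their percent of raw counts, and summed CPM of 13 proliferation markers, for each of 4 libraries per group (points) with the group mean and SD (bars). Ribosomal protein CPM of DC goblet cells lies between 31639 and 34066, above all other groups, and that of Si8 other cells, at 16997 to 22940, lies below them.

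The Si8 other library of replicate 2 stood apart: it had the highest level of 75 of the 78 tested members among the 4 libraries of its group. It also had the lowest summed level of 10 absorptive cell markers in that group (8838 CPM against 10942, 14453 and 17113) and the highest of the 13 proliferation markers (1238 CPM against 1114, 865 and 859). In DC other cells the library of replicate 2 was highest for 57 members and also highest for the proliferation markers, at 1207 CPM against 1051, 873 and 814. In Si8 goblet cells the library of replicate 3 was lowest for 62 members and had the highest goblet marker sum, 286860 CPM against 125831, 135489 and 201458. The part of these in the members' levels was not tested. The median coefficient of variation of a member over its 4 libraries was 3.97% in DC goblet, 7.35% in Si8 goblet, 8.10% in DC other and 14.2% in Si8 other cells.

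Within a group the members differed widely in level, which is compared here per kilobase of annotated transcript. The median member stood at 429 CPM per kb in DC other, 521 in DC goblet, 302 in Si8 other and 422 in Si8 goblet cells, and the 90th percentile was 3.54 to 4.11 times the 10th. Rps27, Rps12 and Rplp1 were among the 4 highest in all 4 groups; Rpl41, whose product is a very short basic peptide, joined them in 3 groups and Rpl9 in DC other cells. Rps27 stood at 1041 CPM per kb in DC other and 1411 in DC goblet cells. Rps12 stood at 894 in Si8 other and 1334 in Si8 goblet cells. Rpl24, Rps4l, Rps20 and Rpl35 were lowest per kilobase in every group; the value of Rpl24 rests on its few counts, and the annotated Rps20 transcript is 3706 bases long against a median of 729 for the members, so its value depends on that annotation.

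In the distal colon 65 of 78 members were called higher in goblet cells, 1 was called lower and 12 were not called (edgeR quasi-likelihood test, Benjamini-Hochberg adjusted p under 0.05 over 16001 genes). Over all genes tested, 27.8% were called higher and 27.9% lower, so 83.3% of the members compares with 27.8% of all genes. The effects were small and alike: the median log2 fold change was 0.34 (1.26-fold) against 0.03 for all genes, the middle 50% of members lay between 0.26 and 0.39, and none reached 1, which 24.7% of all genes did. In 67 members every goblet library lay above every other-cell library, against 26.7% of all genes, and in 2 every goblet library lay below, against 27.2%.

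By subunit, 43 of 46 large subunit members were called higher in DC, with a median of 0.37, and 22 of 32 small subunit members were, with a median of 0.26. Among the 12 members not called were Rpl9, Rpl18, Rpl24, Rps9, Rps19, Rps20, Rps21, Rps24 and Rps27l. In Si8 the medians of large and small subunit members were 0.50 and 0.49. The difference between the subunits was not tested, since members of one library are not replicates.

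Rpl38, a large subunit protein known for a role in translating Hox mRNAs, had the largest goblet effect in DC. Its level was 155, 172, 158 and 147 CPM in DC other libraries and 251, 254, 233 and 252 CPM in DC goblet libraries. The groups were clearly apart, and the log2 fold change was 0.65 ± 0.09 (SE, edgeR adjusted p = 3.1e-06). In Si8 its level was 112, 136, 113 and 101 CPM in other and 189, 177, 164 and 157 CPM in goblet libraries, again without overlap, a rise of 0.58 ± 0.09. Rpl23, Rpl10 and Rpl30, all of the large subunit, followed in DC with rises of 0.54, 0.54 and 0.54. Near the other end, Rps9 of the small subunit was at 0.13 ± 0.09 in DC and was not called.

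In the small intestine 74 members were called higher in goblet cells, 1 lower and 3 not, against 33.1% of all genes called higher and 31.8% lower. The median was 0.50 (1.41-fold), against 0.03 for all genes, and 66 members had every goblet library above every other-cell library (26.7% of all genes). Without the Si8 other library of replicate 2, 75 were called higher and the median was 0.60. The largest effects were those of Rpl39 (0.72 ± 0.09), Rpl12 (0.70 ± 0.10), a protein at the base of the stalk, Rpl30 (0.68 ± 0.10) and Rps27a (0.66 ± 0.10), which is made as a fusion to ubiquitin. Rpl24 and Rpl28 were among the 3 not called. In the 2 regions together, 64 members were called higher in goblet cells of both, against 18.6% of all genes. Mitochondrially encoded genes also moved with the sort, from 6.07% to 8.36% of the counts in Si8 other libraries to 3.19% to 4.07% in Si8 goblet libraries; with them left out of the fit, 75 members were called higher in goblet cells, with a median of 0.50.

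The stalk, which recruits and activates the GTPases of translation, and 2 much-studied small subunit proteins show the common pattern. Rplp0, the stalk base and by CPM the highest member, stood at 1274, 1293, 1164 and 1172 CPM in DC other and 1472, 1487, 1405 and 1551 in DC goblet libraries. In Si8 it stood at 732, 1000, 752 and 693 CPM in other and 1197, 1221, 1037 and 1062 in goblet libraries. Goblet libraries were above other libraries in both regions, by 0.27 ± 0.10 in DC (edgeR adjusted p = 0.034) and 0.51 ± 0.10 in Si8 (adjusted p = 0.00032). Rplp1 rose by 0.38 ± 0.09 in DC and 0.48 ± 0.09 in Si8, and Rplp2 by 0.23 ± 0.09 and 0.33 ± 0.09. The DC calls of Rplp0 and Rplp2 each failed under 7 of 25 alternative settings, with adjusted p up to 0.147 and 0.0857. Rps6, the S6 kinase substrate of the small subunit, rose by 0.35 ± 0.09 in DC and 0.61 ± 0.09 in Si8. Rpsa, the laminin receptor protein of the small subunit, rose by 0.29 ± 0.10 and 0.47 ± 0.10; its DC call failed without the DC other library of replicate 3 or 4 (adjusted p up to 0.0715).

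**Figure D2:**
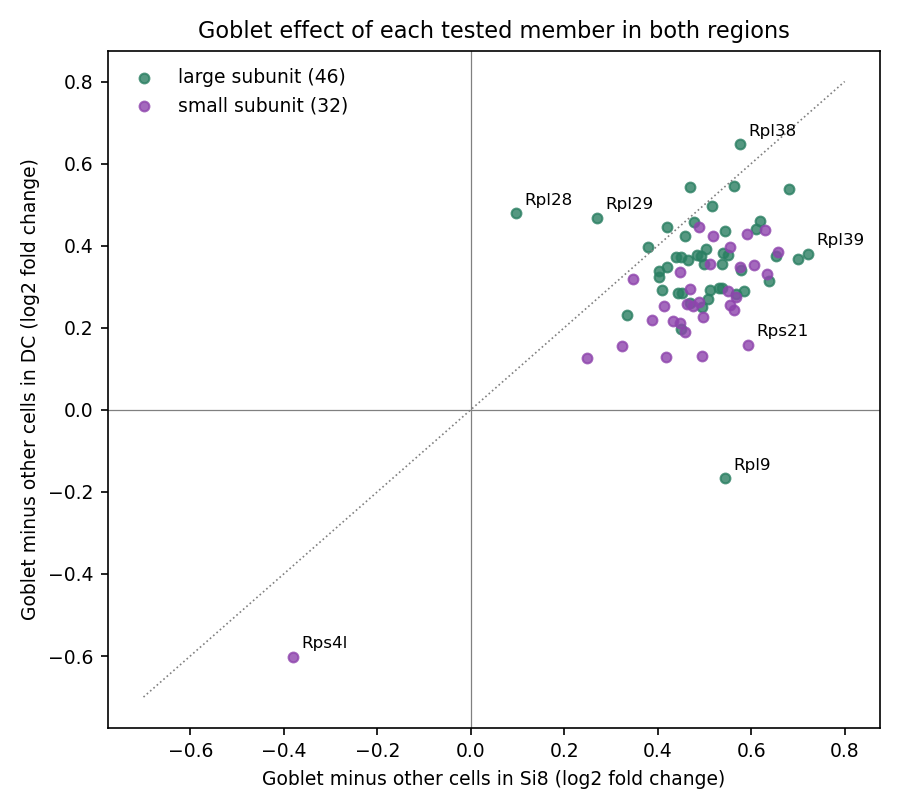
Goblet minus other cells in DC (vertical) against the same in Si8 (horizontal), log2 fold change, for the 78 tested members, green for the large and purple for the small subunit; the dotted line marks equal effects. Most members lie in the upper right and below the line, Rpl9 and Rps4l lie below 0 on the vertical axis, and Rpl28 lies far above the line.

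For most members the estimated goblet effect was larger in Si8: 72 of 78 had a larger log2 fold change there, and the median difference (DC effect minus Si8 effect) was -0.17 against -0.03 for all genes. Only 3 members passed the test of this difference, 1 higher and 2 lower, against 15.6% and 16.5% of all genes; at an unadjusted p under 0.05 there were 1 and 11. This count rests on a single library. Without the Si8 other library of replicate 2, 28 members were called lower and the median was -0.27. Proliferation markers were called higher in goblet cells for 13 of 13 genes in Si8 and 1 of 13 in DC, but the test of the difference called only 3 of the 13 lower and 0 higher, and 0 and 0 under total counts. Stem cell markers were called higher in goblet cells for 8 of 10 genes in Si8 and 2 in DC, and lower for 1 in each region. The test of the difference called 6 of them lower and 1 higher. Of all genes, 33.1% were called higher and 31.8% lower in Si8 goblet cells, and 27.8% and 27.9% in DC. The part of proliferation and stem cell markers in the members' difference was not tested.

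Rpl9, a large subunit protein, parted from the rest. Its level was 626, 714, 740 and 614 CPM in DC other libraries and 603, 606, 596 and 594 CPM in DC goblet libraries. In Si8 it was 255, 321, 247 and 248 CPM in other and 418, 402, 369 and 373 CPM in goblet libraries. Its goblet libraries thus lay below all other libraries in DC, by a log2 fold change of -0.17 ± 0.09 that was not called (adjusted p = 0.13), and above them in Si8, where it rose by 0.54 ± 0.09 (adjusted p = 3.8e-05). The difference was -0.71 ± 0.13 (edgeR adjusted p = 0.00026), and its call held in all 24 alternative settings run for it, from -0.81 to -0.63. Rpl9 has 10 genes with near-identical transcripts (at least 95% identity over at least 80% of the transcript); the closest counted one, Rpl9-ps6 (99.8%), had 17 to 50 counts per library. Adding the -ps rows to Rpl9 gave a difference of -0.71. All -ps rows together amount to only 0.23% to 0.29% of the members' counts in each library, so this value could hardly move. Any near-identical gene without -ps in its symbol was not added. Whether reads of such genes entered the count of Rpl9 was not tested.

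Rps21 of the small subunit went the same way to a lesser extent. It stood at 185, 211, 201 and 159 CPM in DC other and 227, 193, 199 and 225 in DC goblet libraries, which overlap. In Si8 it stood at 95.3, 117, 91.0 and 87.1 CPM in other and 158, 146, 140 and 146 in goblet libraries, which do not. The effects were 0.16 ± 0.10 in DC (adjusted p = 0.18) and 0.59 ± 0.10 in Si8 (adjusted p = 3.7e-05), and their difference was -0.43 ± 0.14 (adjusted p = 0.023). That call failed in 6 of 24 alternative settings, with adjusted p up to 0.176.

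Rpl28, of the large subunit, did the reverse. It stood at 245, 227, 200 and 236 CPM in DC other and 308, 331, 299 and 327 in DC goblet libraries. In Si8 it stood at 238, 266, 232 and 225 CPM in other and 267, 280, 229 and 251 in goblet libraries. The sorts were apart in DC, with a rise of 0.48 ± 0.08 (adjusted p = 6.6e-05), and overlapped in Si8, where the log2 fold change was 0.10 ± 0.08 (adjusted p = 0.32). The difference was 0.38 ± 0.12 (edgeR adjusted p = 0.017), and it was not called under total-count scaling or without the DC other library of replicate 3 (adjusted p up to 0.108). No near-identical transcript of another gene was found for Rpl28 or Rps21.

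**Figure D3:**
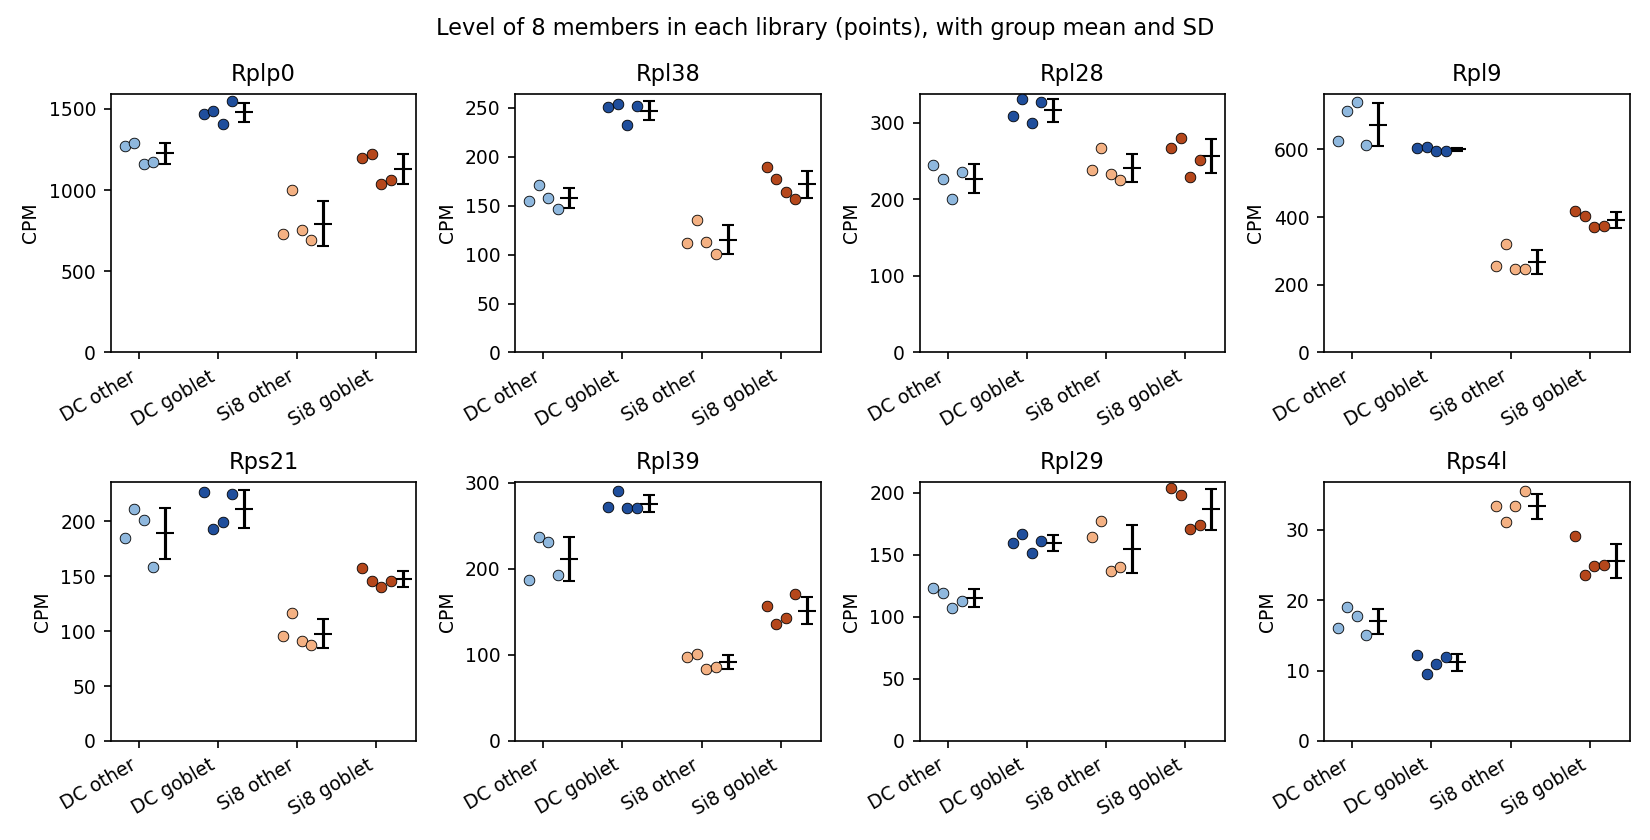
CPM of 8 members in each library (points) with group mean and SD (bars); each panel has its own vertical axis from 0. Rplp0 and Rpl38 are higher in goblet cells of both regions, Rpl28 is higher in goblet cells of DC but overlaps between the sorts in Si8, Rpl9 and Rps21 are higher in DC than in Si8, and Rps4l is lowest in DC goblet cells.

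Between the regions, most members were higher in the colon in both sorts. In goblet cells 56 of 78 were called higher in DC and 2 lower, against 30.6% and 31.5% of all genes, with a median of 0.33 (1.26-fold). In other cells 65 were called higher in DC and 2 lower, against 33.3% and 33.6%, with a median of 0.50 (1.41-fold). The median of all genes was -0.02 and 0.00 in these comparisons. Every DC library lay above every Si8 library in 57 members for goblet cells (28.3% of all genes) and in 51 for other cells (29.7%). Every DC library lay below every Si8 library in 3 members for goblet cells (28.9% of all genes) and in 2 for other cells (29.9%). In both sorts 55 members were called higher in DC, against 22.4% of all genes. All 4 comparisons, goblet over other in each region and DC over Si8 in each sort, called 47 members higher, against 6.96% of all genes; the comparisons share groups. The libraries of the 2 regions differ in depth and bear separate runs of library numbers, 1 to 8 in Si8 and 9 to 18 in DC. Their counts are in separate tables, which differ in the mitochondrially encoded genes. An effect of depth, library set or table cannot be told apart from one of the region. It was not tested beyond leaving those genes out, after which 48 members were called higher in goblet cells and 66 in other cells. When libraries were scaled by their totals alone, the median of all genes moved to 0.32 in goblet and 0.27 in other cells, and the members lay 0.34 and 0.49 above it. Dissociation stress genes and nuclear-retained RNAs also moved with the region, for reasons that were not tested. Of 13 dissociation stress genes 8 were called higher in DC and 0 lower in goblet cells and 10 and 0 in other cells. Of 4 nuclear-retained RNAs 3 were higher in DC and 0 lower in each sort. Between the sorts 2 stress genes were higher and 1 lower in DC goblet cells and 6 and 1 in Si8, and 1 nuclear-retained RNA was higher and 1 lower in DC and 1 and 3 in Si8. Of all genes, 27.8% were called higher and 27.9% lower in DC goblet cells, and 33.1% and 31.8% in Si8. In DC the stress genes (15.4% and 7.69%) and the nuclear-retained RNAs (25% and 25%) did not exceed these shares. Their part in the members' levels was not tested.

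Rpl9 and Rpl39 differed most between the regions. In other cells Rpl9 was 1.33 ± 0.09 higher in DC (2.51-fold, adjusted p = 1.6e-10) and in goblet cells 0.62 ± 0.09. Rpl39, a small protein at the exit tunnel of the large subunit, stood at 187, 236, 231 and 192 CPM in DC other and 272, 290, 270.09 and 270.04 in DC goblet libraries. In Si8 it stood at 97.4, 101, 83.1 and 85.9 CPM in other and 156, 136, 143 and 171 in goblet libraries. All DC libraries lay above all Si8 libraries, by 1.21 ± 0.09 in other (2.31-fold, adjusted p = 9.7e-10) and 0.87 ± 0.09 in goblet cells (adjusted p = 1.6e-07). Rps21 was 0.95 ± 0.10 higher in DC in other and 0.52 ± 0.10 in goblet cells. Rps7 was 0.81 ± 0.10 higher in other cells, and Rpl23 and Rps28 were 0.66 ± 0.09 and 0.57 ± 0.10 higher in goblet cells.

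**Figure D4:**
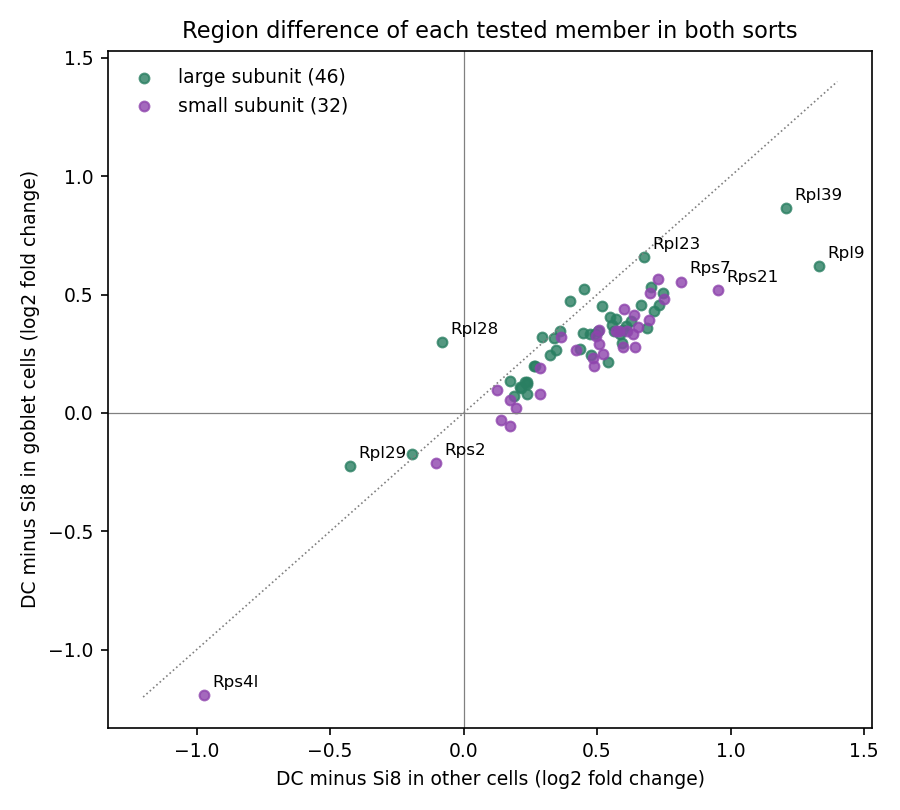
DC minus Si8 in goblet cells (vertical) against the same in other cells (horizontal), log2 fold change, for the 78 tested members, green for the large and purple for the small subunit; the dotted line marks equal differences. Most members lie above 0 on both axes, Rpl9 and Rpl39 lie farthest to the right, and Rps4l and Rpl29 lie below 0 on both.

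Rps4l and Rpl29 were the members called lower in DC. Rps4l, a retrocopy related to Rps4x, stood at 16.1, 19.1, 17.7 and 15.1 CPM in DC other and 12.2, 9.48, 10.996 and 11.9 in DC goblet libraries. In Si8 it stood at 33.3, 31.2, 33.4 and 35.5 CPM in other and 29.1, 23.5, 24.8 and 25.002 in goblet libraries. It was lower in goblet cells of both regions without overlap, with log2 fold changes of -0.60 ± 0.10 in DC (edgeR adjusted p = 5.3e-05) and -0.38 ± 0.09 in Si8 (adjusted p = 0.0016). Between the regions it was lower in DC, at -1.19 ± 0.10 in goblet and -0.97 ± 0.10 in other cells. Its partner Rps4x, at 454 to 778 CPM in the group means, rose in goblet cells by 0.36 ± 0.10 in DC and 0.51 ± 0.10 in Si8. All 4 calls of Rps4l held in all 25 alternative settings run for each.

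Rpl29, of the large subunit, stood at 123, 119, 107 and 113 CPM in DC other and 159, 167, 151 and 161 in DC goblet libraries. In Si8 it stood at 164, 177, 137 and 140 CPM in other and 204, 198, 171 and 174 in goblet libraries. It rose in goblet cells of both regions, by 0.47 ± 0.09 and 0.27 ± 0.09, and was lower in DC, at -0.42 ± 0.09 in other (adjusted p = 0.0003) and -0.23 ± 0.09 in goblet cells (adjusted p = 0.032). Under total-count scaling the goblet value changed sign, to 0.11. The goblet call failed in 9 of 25 alternative settings, among them upper-quartile factors, -ps rows added and 6 fits without 1 library (adjusted p up to 0.477). The call in other cells failed under total counts (adjusted p = 0.286), and the rise in Si8 goblet cells failed there and without the Si8 other library of replicate 3 (adjusted p up to 0.054). Rpl29 has 16 genes with near-identical transcripts, and the row of 1 of them, Gm10709 (99.2% identity), went the other way, with 49 to 117 counts in each DC library and 2 to 6 in each Si8 library. Members with a near-identical transcript elsewhere in the annotation (27 tested) had median DC minus Si8 differences of 0.32 in goblet and 0.44 in other cells, and the 51 without one had 0.33 and 0.52.

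Rps27l, which p53 induces and which resembles Rps27, changed less than its partner. It was 0.15 ± 0.09 in DC (not called, adjusted p = 0.15) and rose by 0.32 ± 0.09 in Si8, while Rps27 rose by 0.44 ± 0.09 and 0.63 ± 0.09. Of the ribosomal proteins outside the naming rule, Rps3a1 and Gnb2l1 rose in goblet cells by 0.38 ± 0.10 and 0.36 ± 0.10 in DC and by 0.55 ± 0.10 and 0.57 ± 0.10 in Si8. Unlike these, Fau, which encodes a ubiquitin-like protein fused to a small subunit protein, fell by 0.33 ± 0.08 in Si8 goblet cells (edgeR adjusted p = 0.00097). In DC its log2 fold change was -0.18 ± 0.08 (adjusted p = 0.0496), a call that failed in 17 of 25 alternative settings, upper-quartile and total-count scaling included. The paralogs Rpl22l1 and Rpl36al rose in goblet cells by 0.63 and 0.94 in DC and by 0.70 and 0.69 in Si8.

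Most translation factors were also called higher in goblet cells, while between the regions they went both ways. The counts of these lists are to be read against the shares of all genes called higher in goblet cells (27.8% in DC, 33.1% in Si8) and called higher or lower in DC than in Si8 (30.6% and 31.5% in goblet cells, 33.3% and 33.6% in other cells). Of 9 elongation and termination factors 8 were called higher in goblet cells of each region (medians 0.35 in DC and 0.52 in Si8), with Eef1a1, which brings aminoacyl-tRNA to the ribosome, up by 0.58 in DC and the recycling factor Abce1 by 0.74 and 0.77. Of 35 initiation factors 23 were called higher and 5 lower in DC, and 25 and 3 in Si8 (65.7% and 71.4% higher); Eif3l and Eif2b1 rose by 0.86 and 0.83 in DC and Eif2s2 fell by 0.96. Between regions 9 initiation factors (25.7%) were called higher and 16 (45.7%) lower in DC goblet cells. Of 17 other mRNAs with a TOP motif 9 were called higher and 1 lower in DC goblet cells, 12 and 1 in Si8 goblet cells, and 8 higher and 1 lower in DC against Si8 in each sort, with medians of 0.14 in goblet and 0.20 in other cells. Eef1b2, of that list, was 0.75 higher in DC other cells and Pabpc1 was lower there, at -0.59.

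Factors that build ribosomes were called higher in goblet cells too, in larger number in the small intestine. Of 68 biogenesis genes 32 were called higher and 2 lower in goblet cells of DC, and 63 higher and 1 lower in Si8, with medians of 0.27 and 0.61. The test of the difference called 15 of them (22.1%) lower and 0 higher, against 16.5% and 15.6% of all genes. Under total counts it called 2 lower and 1 higher. Tsr1, of the small subunit pathway, and Nle1, of the large, rose 2.20-fold and 2.00-fold in Si8 goblet cells, and Nop10 and Gar1, of the pseudouridylation particle, by 0.77 and 0.75 in DC. Sbds, which helps release Eif6 from new large subunits, went to -1.01 in DC and -0.39 in Si8 goblet cells. In goblet cells 32 biogenesis genes were lower in DC than in Si8 and 5 were higher, while in other cells 19 were lower and 19 higher. For RNA polymerase I, which makes ribosomal RNA, 7 of 15 genes were called higher and 1 lower in DC goblet cells and 10 and 0 in Si8.

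Genes of protein entry into the ER had the largest medians of these lists. All 18 tested genes of ER targeting and the translocon, through which secreted proteins enter the ER, were called higher in DC goblet cells, and 16 were higher and 1 lower in Si8, with medians of 1.19 and 0.83. Ssr3, of the translocon-associated complex, rose by 1.56 in DC and 1.04 in Si8. Rrbp1, the ribosome-binding protein of the ER, fell by 0.55 in Si8, and its goblet effect differed between the regions by 1.46 (adjusted p = 3.5e-08). Of 20 cytosolic aminoacyl-tRNA synthetases 17 were called higher in DC goblet cells and 18 in Si8, led by Wars at 1.60 and 2.19, yet 14 and 11 were lower in DC than in Si8 in goblet and other cells. Among 16 mTORC1 and TOP regulators 7 were higher and 3 lower in DC goblet cells, and 8 and 5 in Si8. The translation repressor Eif4ebp1 rose by 0.97 and 0.88, and Max, the partner of Myc, went to -2.14 and -1.45. Larp1 was lower in DC than in Si8 other cells, at -0.78.

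Mitochondrial ribosomal proteins, encoded by nuclear genes, stood nearer to the background. Of 76 tested, 24 were called higher and 4 lower in DC goblet cells, and 40 and 1 in Si8, with medians of 0.17 and 0.26. The share called higher was thus 31.6% in DC, near the 27.8% of all genes, and 52.6% in Si8, where 33.1% of all genes were. In DC against Si8, 8 were higher and 30 lower in goblet cells (median -0.20) and 6 higher and 28 lower in other cells (median -0.10). The shares called lower, 39.5% and 36.8%, compare with 31.5% and 33.6% of all genes, so that in other cells the share is near the background; the shares called higher were 10.5% and 7.89%, against 30.6% and 33.3%. Mrps6 fell by 1.86 in DC goblet cells and was 2.62 higher in DC than in Si8 other cells. The regional split of these lists depends on the scaling. Under total counts, where the median of all genes was 0.32 in goblet and 0.27 in other cells, the mitochondrial list had 23 genes higher and 3 lower in DC goblet cells (median 0.14) and 22 and 3 in other cells (median 0.17), so its medians changed sign, while the median of the list minus that of all genes was -0.19 and -0.10. Initiation factors had 15 higher and 1 lower in DC goblet cells under total counts, biogenesis genes 14 and 4, and aminoacyl-tRNA synthetases 3 and 4. The goblet medians of all the lists in the plot of list medians stayed above 0 under RLE, upper-quartile and total-count scaling.

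**Figure D5:**
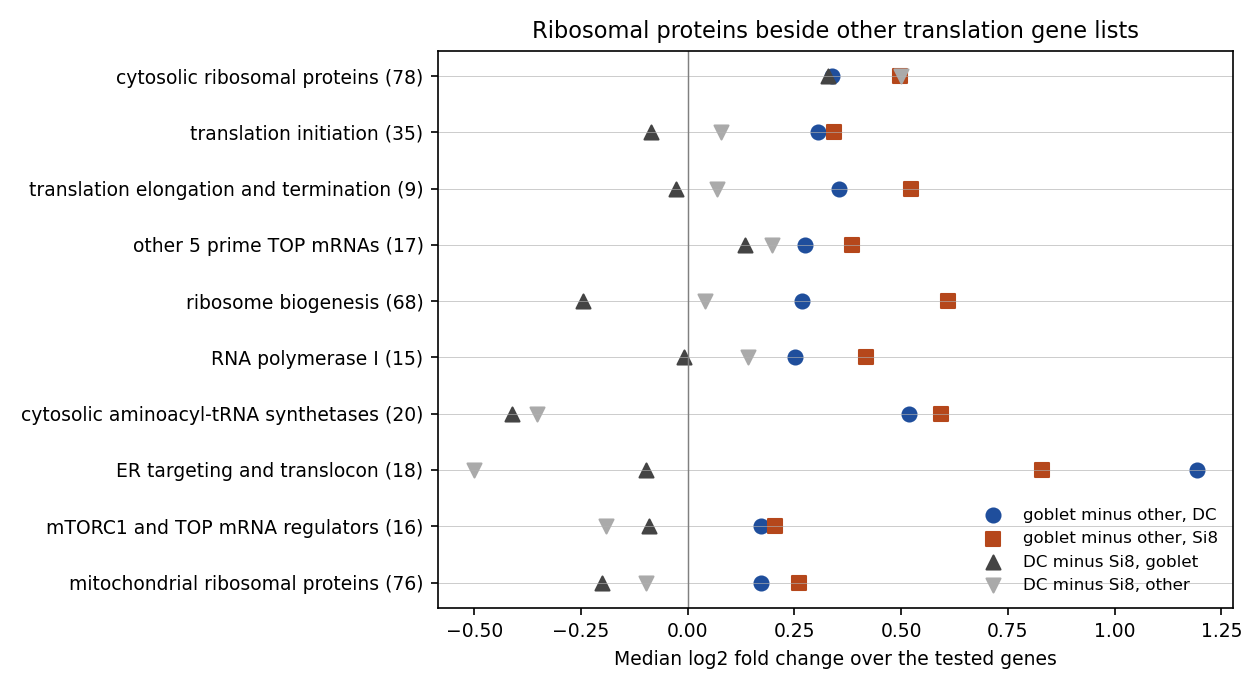
Median log2 fold change of the tested genes of each list (number tested in brackets) in the 4 comparisons, one symbol per comparison. For the cytosolic ribosomal proteins all 4 medians lie between 0.33 and 0.50, whereas the other lists have goblet medians above 0 and DC minus Si8 medians of 0.20 or below with TMM factors. Under total counts the latter all lie above 0 except those of the aminoacyl-tRNA synthetases in both sorts and of ER targeting in other cells.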

How the data were processed

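RNA of sorted cells was sequenced from stranded, ribosomal-RNA-depleted total RNA libraries, per the labels' protocols. Raw read counts per gene were deposited by the authors in a table per region; per the submitters' processing notes STAR 2.4.0f, HTSeq 0.6.1p1, DESeq2 1.14 and FastQC 0.11.2 were used on build mm10. How they were run, including the counting's strand setting, is not given in the sources used here. Without the strand setting, reads of overlapping antisense genes (Rpl23a, Rpl30, Rpl32, Rpl35, Rpl5) cannot be told apart, and how reads that match near-identical genes were treated is not known. Another deposited table holds a normalized signal, counts divided by size factors: 100% of its 519072 values equalled the deposited count after multiplying by the library's factor, within 0.001 of the larger of 1 and the count, so a count test on those reads is the test given here. Each count table listed 46882 entries; 4 with repeated symbols were left out.

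The test was edgeR's robust quasi-likelihood F test (version 4.0.16, R 4.3.3), from a single fit to all 4 groups with no covariates, after filterByExpr by group and with TMM factors; p was adjusted by Benjamini-Hochberg over 16001 genes and called under 0.05 (common biological coefficient of variation 0.128). The SE was derived from F (the size of the log2 fold change divided by F's square root). On simulated counts for DC goblet against DC other cells with 16001 genes, 37% of 100 genes changed by 0.5 and 75% of 100 changed by 1 (log2) were recovered, with 5 false calls. The changed genes were drawn at random from all levels, and far fewer changed than were called in the data. These rates are therefore not those of the members. Levels per kilobase use 1 GENCODE M21 transcript per gene (build GRCm38, which is mm10), and near-identical transcripts were found with blastn. Named members are the 4 largest and 4 smallest log2 fold changes per contrast, the 4 highest per kilobase in each group, the stalk, Rpsa, Rps6 and paralogs with their partners; from other lists, at most the 2 largest and 2 smallest called genes per contrast. Some genes this rule picks are not reported here. Members and lists were chosen with earlier results of these data known. Other markers listed were of absorptive, enteroendocrine, tuft, B and plasma, and stromal and endothelial cells; lists of nuclear-retained RNAs and dissociation stress genes were also counted. Whether libraries came from separate mice is not in the labels, so p-values measure only the spread between these libraries, which may be technical. No 2 libraries of the same group were alike within sampling noise. Alternatives were RLE, upper-quartile, total-count and member-free TMM scaling, DESeq2 1.42.0, no filter, only the contrast's groups, no mitochondrially encoded genes, -ps rows added, and leaving out each library.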

Additional observations from a re-analysis of the deposited data

Results flagged for a closer look

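The goblet effect of 3 members differed between DC and Si8 by the test of the difference: Rpl28 by 0.38, Rpl9 by -0.71 and Rps21 by -0.43 (log2, DC minus Si8). Among 124 sets of 4 libraries (the summed level and 30 members that the rule for named genes picks in each group), 10 had 1 library whose gap to the nearest other was, as a share of the range, above Dixon's 95% critical value, 8.06% where chance gives about 1 in 20. The sets are not independent, since many members move together in a library, so this share is not a test against that rate. Of the 10, 4 were the Si8 other library of replicate 2, with high values of Rpl9 (321 CPM), Rplp1 (495 CPM), Rplp2 (281 CPM) and Rps9 (441 CPM). The DC goblet library of replicate 2 was high for Rpl39 (290 CPM) and Rplp2 (333 CPM), and that of replicate 3 was low for Rpl38 (233 CPM). Of the Si8 goblet libraries, replicate 2 was high for Rpl24 (1.36 CPM, from 53 counts), replicate 4 was low for Rpl41 (446 CPM) and replicate 1 was high for Rps27 (374 CPM).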

How the results depend on the processing

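Over the planned settings, the count called higher in DC goblet cells ran from 53 (without mitochondrially encoded genes) to 70 (only the contrast's groups). In DC against Si8 goblet cells it ran from 46 without a filter to 73 under total counts. The members' counts called higher kept within 1.5 times the main count under all scalings, DESeq2, no filter and the other planned settings, except the difference of the goblet effect. There, 1 member was called higher, 0 under total counts; 2 were called lower, but 1 under total counts, 7 without a filter, 5 without mitochondrially encoded genes and 4 with DESeq2. Members called lower in DC goblet cells were 1, but 2 with only the groups of the contrast and with DESeq2; lower in DC against Si8 in goblet cells, 2, but 1 with upper-quartile factors, total counts and -ps rows added and 3 without a filter, with only the groups of the contrast and with DESeq2; and in other cells, 2, but 1 with total counts. Medians under total counts were 0.44 (goblet effect in DC), 0.67 and 0.76 (DC against Si8, goblet and other cells), where the median of all genes also moved, to 0.13, 0.32 and 0.27. With DESeq2 the median of all genes with a fold change, low-count genes included, was 0.24 in DC against Si8 goblet cells and that of the members 0.30; over the 16001 genes that edgeR tested the medians were -0.05 and 0.30. Reversed under total counts were Rpl29, DC against Si8 in goblet cells (0.11), and Rps27l in the same comparison (0.31).

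Leaving out each library in turn gave 46 to 70 members called higher in DC goblet cells (1 lower each time; median 0.30 to 0.38), 73 to 75 in Si8 goblet cells (1 lower; 0.45 to 0.60), 45 to 59 in DC against Si8 goblet cells (1 to 3 lower; 0.28 to 0.36) and 58 to 71 in other cells (2 lower; 0.45 to 0.61). For the difference it gave 0 to 1 higher and 1 to 28 lower, with medians of -0.27 to -0.11: 28 without Si8 other replicate 2, 5 without Si8 goblet replicate 3, 4 without DC other replicate 4, and 0 higher without DC other replicate 3. The causes were not tested. Of the members called in the comparisons of goblet with other cells, 42 of 66 in DC and 74 of 75 in Si8 held in every setting; of those between regions, 46 of 58 in goblet and 58 of 67 in other cells, and of the difference 1 of 3, Rpl9. In the low-count Rpl24 no difference was detectable at this depth. No paired analysis was run. The library numbers in the labels do not repeat between groups, and no label says which libraries share a mouse. Neighbouring numbers do fall in opposite sorts. In Si8 these are 1 and 2, 3 and 4, 5 and 6, and 7 and 8. In DC they are 9 and 10, 11 and 12, 13 and 14, and 17 and 18. Whether such neighbours are pairs is not known, and the tests treat them as unpaired.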
